A study of Mus musculus with 6 samples.

Results

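Sprouty and Spred proteins and the ERK phosphatases of the Dusp family restrain signaling from receptor tyrosine kinases through Ras to the kinase ERK. The genes examined here are *Spry1*, *Spry2*, *Spry4*, *Spred1*, *Spred2*, *Spred3*, *Dusp4*, *Dusp5* and *Dusp6*, which are 9 of the 44788 gene symbols counted. They were taken by symbol, and the set was put together with the higher level of *Spry1* in the knockout already known. Levels of these 9 genes in the 2 genotypes are therefore given as a description, without p-values. How many of them met the call made for all genes is counted once, as a description that supports nothing.

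Tail tendons of WT mice and of *Mkx*-/- mice, which carry a homozygous loss of the tendon transcription factor gene Mohawk (*Mkx*), were sequenced as bulk RNA. Both groups were of strain C57BL/6 with a labelled age of 3 weeks, and each genotype had 3 libraries. The study's text gives another age for the bulk samples, and the sources used here do not state which part of *Mkx* was deleted or whether a library came from 1 animal. If libraries of a genotype were not from separate animals, p-values measure only the spread between these libraries.

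The libraries held between 10835070 and 14160301 counts. Of the 14550 genes with enough counts to fit, edgeR's quasi-likelihood test called 275 (1.89%) upregulated and 193 (1.33%) downregulated (adjusted p below 0.05, log2 fold change past 1 in size), against 711 and 154 when libraries were scaled by size alone. *Mkx* had 1381 to 1825 counts in WT and 491 to 620 counts in *Mkx*-/- libraries, so reads on it remained. Tendon markers such as *Tnmd*, *Fmod*, *Thbs4*, *Kera*, *Dcn*, *Col1a1*, *Col1a2* and *Scx* were detected in all 6 libraries. WT replicate 3 came from a male (301 counts on *Ddx3y*, 1 on *Xist*) and the other 5 libraries from females. WT replicate 1 stood apart from the other WT libraries, with a chi-square per degree of freedom of 38.3 and 40.1 against them where they had 8.22 between themselves. The *Mkx*-/- libraries had 26.9, 25.5 and 22.8 between themselves, so they were less alike than WT replicates 2 and 3.

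In the known pathway, a growth factor such as an FGF binds its receptor, and adaptor proteins link the receptor to Ras, which takes up GTP. A kinase chain of Raf, Mek and ERK then carries the signal to the nucleus. ERK activity raises transcription of its own inhibitors. Sproutys act between the receptor and Raf, Spreds bring the Ras-inactivating protein neurofibromin to the membrane, and the Dusp phosphatases remove phosphate from ERK itself. In tendon, FGF and TGF-β signals act on progenitors during development. Feedback inhibitors of the route from Ras to ERK are commonly read as reporters of signals through that route, such as those of FGF.

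RefSeq promoters (build GRCm38.p6) matched 7 of the 9 genes. *Spry1* and *Spry2* are shown because they were the most highly expressed of the 9 per kilobase and differed between genotypes by unlike amounts. The 250 bases before the listed transcription start are given, with matches to CANNTG in capitals. The windows are chr3:37639697-37639946 on the plus strand for *Spry1* and chr14:105896820-105897069 on the minus strand for *Spry2*.
Spry1: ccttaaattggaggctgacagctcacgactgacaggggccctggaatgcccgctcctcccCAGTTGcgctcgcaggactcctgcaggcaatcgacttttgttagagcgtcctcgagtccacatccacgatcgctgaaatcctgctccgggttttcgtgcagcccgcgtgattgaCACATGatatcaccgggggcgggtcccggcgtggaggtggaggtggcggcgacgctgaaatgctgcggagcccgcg
Spry2: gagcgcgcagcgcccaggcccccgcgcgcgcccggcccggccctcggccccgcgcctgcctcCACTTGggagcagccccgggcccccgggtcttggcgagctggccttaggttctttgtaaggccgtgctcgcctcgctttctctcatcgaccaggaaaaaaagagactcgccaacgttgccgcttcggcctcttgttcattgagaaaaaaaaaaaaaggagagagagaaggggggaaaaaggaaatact

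CANNTG is the E-box letter pattern bound by basic helix-loop-helix factors. It was found at 190 and 76 bases before the start of *Spry1* and at 188 bases before that of *Spry2*, and 66.2% of the 32851 promoters of this length hold it on either strand. The letters CCGGAA (an ETS core, in 12.0% of promoters), TGANTCA (AP-1, 6.75%), TGACGTCA (a cAMP response element, 1.55%) and ACANNTGT (bound by Iroquois homeodomain proteins, relatives of Mkx, 6.31%) were in neither window, nor in those of the other 5 matched genes. *Dusp5* had a pair of CArG boxes, the core of the serum response element, at 82 and 72 bases before its start, where 1.47% of promoters hold this motif. Both *Spry1* and *Spry2* windows had a GC content of 62.4%, with a median of 52.4% over all promoters.

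*Spry1*, an inhibitor of FGF and GDNF receptor signaling, lies on chromosome 3 from 37538869 to 37543520 in mm9. Reads on it numbered 474, 313 and 383 in WT and 1409, 1718 and 1502 in *Mkx*-/- libraries. Scaled to library depth with TMM (CPM), this was 37.3, 30.7 and 30.7 CPM in WT and 129, 121 and 119 CPM in *Mkx*-/- tendons.
All 3 *Mkx*-/- libraries were far above all 3 WT libraries, and the libraries within each genotype were close together. In bulk tissue, more or fewer cells of a type cannot be told apart from more or less RNA per cell. The mean (± SD, n = 3) was 32.9 ± 3.83 CPM for WT against 123 ± 5.36 CPM for *Mkx*-/-, which is a log2 fold change of 1.90 (standard error 0.13) or 3.73-fold. With each library left out in turn, this value lay between 1.84 (without WT replicate 2, WT replicate 3 or *Mkx*-/- replicate 1) and 2 (without WT replicate 1). By log2 fold change, *Spry1* ranked 194 from the top among the 14550 genes fitted.

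*Spry2*, the most broadly expressed Sprouty, lies on chromosome 14 from 106291166 to 106296036. Its level was 17.5, 17.3 and 18.3 CPM in the WT libraries and 22.6, 21.1 and 19.9 CPM in the *Mkx*-/- libraries. The groups did not overlap, but the highest WT library and the lowest *Mkx*-/- library were close. The log2 fold change of *Spry2* was 0.26 (standard error 0.12), or 1.20-fold.

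*Spry4*, an inhibitor that acts on FGF and VEGF receptor signaling, lies on chromosome 18 from 38745922 to 38760922, on the same chromosome as *Mkx*. Its level was 7.48, 18.4 and 20.4 CPM in the WT libraries and 8.61, 6.11 and 10.9 CPM in the *Mkx*-/- libraries. WT replicate 1 lay within the range of the *Mkx*-/- libraries, and the other WT libraries lay above it.
*Spry4* had a log2 fold change of -0.85 (standard error 0.37), and of -1.19 without WT replicate 1. Among WT libraries the highest value was 2.73 times the lowest, where the median of this ratio was 1.30 over the 10295 genes that averaged 5 CPM or more, and 2.26% of those genes had a ratio at least as large.

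**Figure D1:**
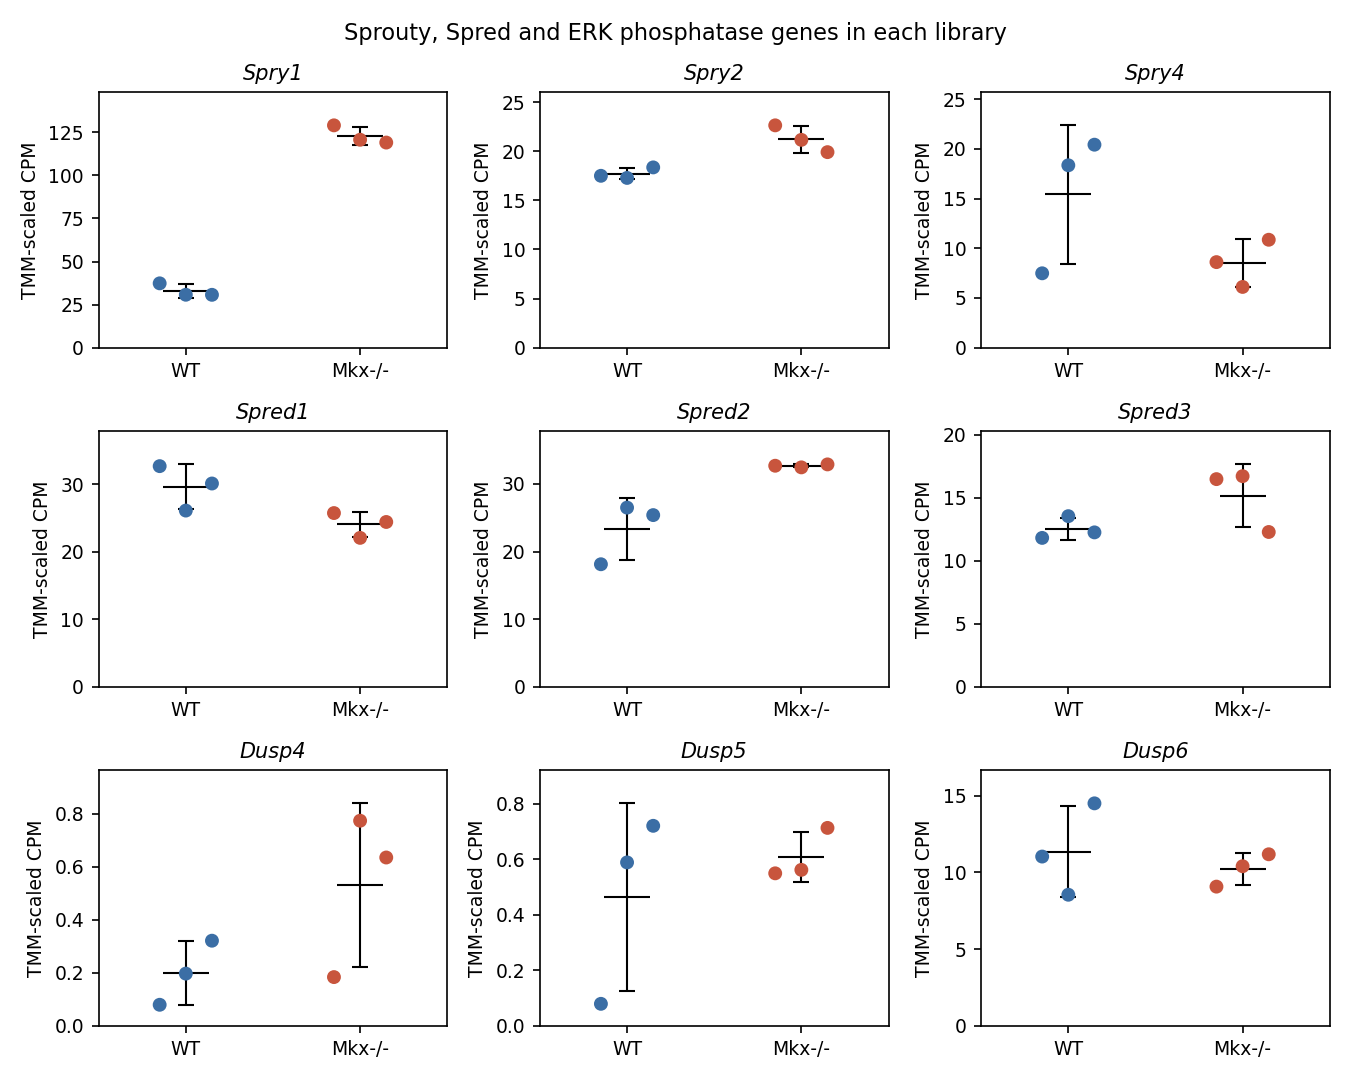
Level of each of the 9 genes (TMM-scaled CPM, linear axis from 0) in the 3 WT and 3 *Mkx*-/- libraries. Points are libraries in order of replicate number, and bars give the mean and SD. *Spry1* is between 30.7 and 37.3 CPM in WT and between 119 and 129 CPM in *Mkx*-/- libraries, and *Dusp4* and *Dusp5* stay below 1 CPM.

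Ratios of counts within a library do not depend on how libraries are scaled. The ratio of *Spry1* to *Spry2* counts was 2.14, 1.78 and 1.67 in WT replicates 1 to 3 and 5.70, 5.71 and 5.98 in *Mkx*-/- replicates 1 to 3. *Spry1* thus took 59.9%, 46.3% and 44.2% of the counts on the 3 Sprouty genes in WT and 80.5%, 81.6% and 79.5% in *Mkx*-/- tendons. The Wilson 95% intervals, which cover counting error only, were 40.9% to 47.5% in the lowest WT library and 56.5% to 63.3% in the highest, and 77.6% to 81.2% in the lowest *Mkx*-/- library. No share is corrected for gene length.
In these libraries the makeup of the Sprouty counts differed between genotypes, and WT replicate 1 was the WT library nearest to the *Mkx*-/- libraries. The set was chosen with the higher *Spry1* level known, so nothing is read from its higher share. *Spry4* took 12.0% of the Sprouty counts in WT replicate 1, 27.7% and 29.4% in the other WT libraries, and 4.13% to 7.25% in *Mkx*-/- libraries. The summed Sprouty level was 66.0 ± 3.58 CPM in WT libraries and 153 ± 6.65 CPM in *Mkx*-/- libraries (SD over 3 libraries each). Without *Spry1*, the sum was 33.1 ± 7.23 CPM in WT libraries and 29.8 ± 2.17 CPM in *Mkx*-/- libraries.

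**Figure D2:**
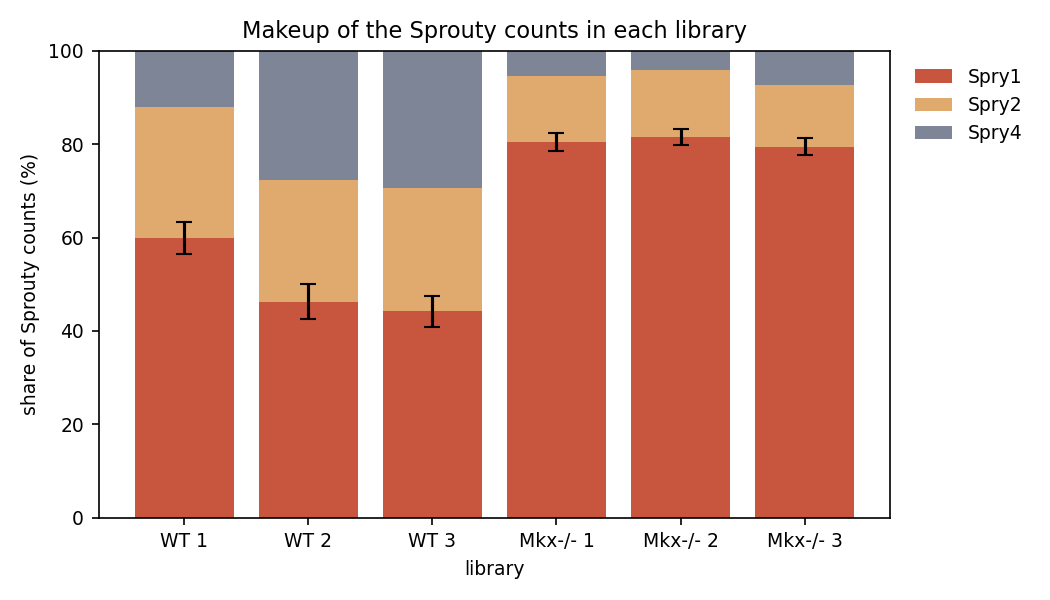
Share of the counts on *Spry1*, *Spry2* and *Spry4* taken by each gene (percent, not corrected for length) in each of the 6 libraries. Error bars are Wilson 95% intervals of the *Spry1* share, which is 44.2% to 59.9% in WT and 79.5% to 81.6% in *Mkx*-/- libraries.

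*Spred1*, which carries mutations in Legius syndrome, lies on chromosome 2 from 116947110 to 117008015 and was at 32.7, 26.1 and 30.1 CPM in the WT libraries and 25.7, 22.1 and 24.4 CPM in the *Mkx*-/- libraries. The groups did not overlap, although the lowest WT and the highest *Mkx*-/- library were close. Its log2 fold change was -0.30 (standard error 0.13).
*Spred2*, its close relative on chromosome 11 from 19824378 to 19924029, was at 18.1, 26.5 and 25.4 CPM in WT and 32.7, 32.5 and 32.9 CPM in *Mkx*-/- libraries. The *Mkx*-/- libraries were almost equal and lay above all WT libraries, of which WT replicate 1 was the lowest. *Spred2* had a log2 fold change of 0.49 (standard error 0.16), and 0.33 without WT replicate 1. *Spred3*, which lacks a working Kit-binding domain, lies on chromosome 7 from 29943848 to 29954860 and was at 11.8, 13.5 and 12.3 CPM in WT and 16.5, 16.7 and 12.3 CPM in *Mkx*-/- libraries. *Mkx*-/- replicate 3 lay within the WT range, and the log2 fold change was 0.28 (standard error 0.16).

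The summed level of the Spred genes was 65.5 ± 2.63 CPM in WT libraries and 71.9 ± 2.73 CPM in *Mkx*-/- libraries (SD over 3 libraries each). The ratio of *Spred2* to *Spred1* counts was 0.554, 1.02 and 0.843 in WT replicates 1 to 3 and 1.27, 1.47 and 1.35 in *Mkx*-/- replicates 1 to 3. *Spred2* thus had more counts than *Spred1* in every *Mkx*-/- library, and in WT replicate 2 alone among WT libraries, by a small margin.

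Of these 3 ERK phosphatases, *Dusp6* was the only one with enough counts to fit. It encodes the cytoplasmic ERK-specific phosphatase and lies on chromosome 10 from 98725865 to 98730122. Its level was 11.0, 8.54 and 14.5 CPM in the WT libraries and 9.07, 10.4 and 11.2 CPM in the *Mkx*-/- libraries. All 3 *Mkx*-/- libraries lay within the WT range, the highest WT value being in the male library. *Dusp6* had a log2 fold change of -0.16 (standard error 0.21), and 0.04 without WT replicate 3.

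*Dusp4* and *Dusp5*, which encode nuclear phosphatases, were close to the detection limit. *Dusp4*, on chromosome 8 from 35870351 to 35882948, had 1, 2 and 4 reads in WT and 2, 11 and 8 in the *Mkx*-/- libraries. *Dusp5*, on chromosome 19 from 53603599 to 53616921, had 1, 6 and 9 counts in WT and 6, 8 and 9 counts in *Mkx*-/- libraries. Their groups overlapped, and no difference was detectable at this depth. No other gene of the mm9 annotation overlaps any of the 9.

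In all, 7 of the 9 genes had enough counts to fit, with 4 log2 fold changes above 0 and 3 below (*Dusp6* among the latter, but above 0 when scaled by library size alone). *Spry1* alone met the call for upregulated genes (1 of 7, where 1.89% of all tested genes did) and none met the call for downregulated genes (1.33% of all). In 3 of the 7 every *Mkx*-/- library was above every WT library, as in 14.6% of all tested genes, and in 1 every one was below, as in 13.6%. Since the set was chosen on this contrast, nothing is read from these counts. The median log2 fold change of the 7 was 0.26, beside -0.004 over all genes tested. Scaling by library size alone raised the median of all genes to 0.25, put *Spry1* at 2.14, and turned *Dusp6* to 0.10 and *Spred1* to -0.06.

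**Figure D3:**
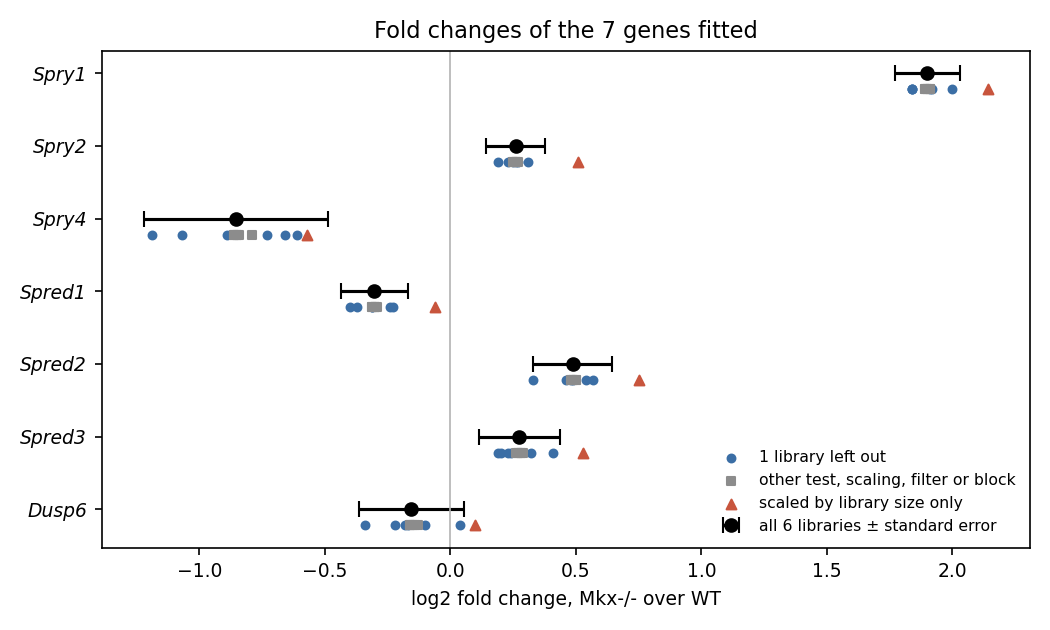
Log2 fold change of the 7 fitted genes, *Mkx*-/- over WT, as a black point with its standard error, and below it the values with 1 library left out, under another test, scaling, filter or block, and when scaled by library size only. *Spry1* stays between 1.84 and 2.14, while *Dusp6* lies on both sides of 0, with 0.04 without WT replicate 3 and 0.10 when scaled by library size only.

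Levels of different genes were compared per kilobase of exon, using the union of annotated mm9 exons, which can overstate the length in use. In WT tendons *Spry1* was the highest at 11.3 ± 1.32 CPM per kb (SD, n = 3), followed by *Spry2* at 8.49 ± 0.271 CPM per kb, and their libraries did not overlap. *Spred2*, *Spred1*, *Dusp6* and *Spry4* followed with means of 5.05, 4.37, 4.06 and 3.36 CPM per kb, and each overlapped the next. *Spred3*, at 2.09 CPM per kb, overlapped *Spry4* only through WT replicate 1. *Dusp5* and *Dusp4* were at 0.187 and 0.0724 CPM per kb and overlapped each other.
In *Mkx*-/- tendons *Spry1* was at 42.3 ± 1.84 CPM per kb (SD, n = 3), further above *Spry2* at 10.2 ± 0.655 and *Spred2* at 7.08 ± 0.0476 CPM per kb. *Spry4* was at 1.86 CPM per kb, below the mean of *Spred3* at 2.53 CPM per kb, with overlapping libraries.

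**Figure D4:**
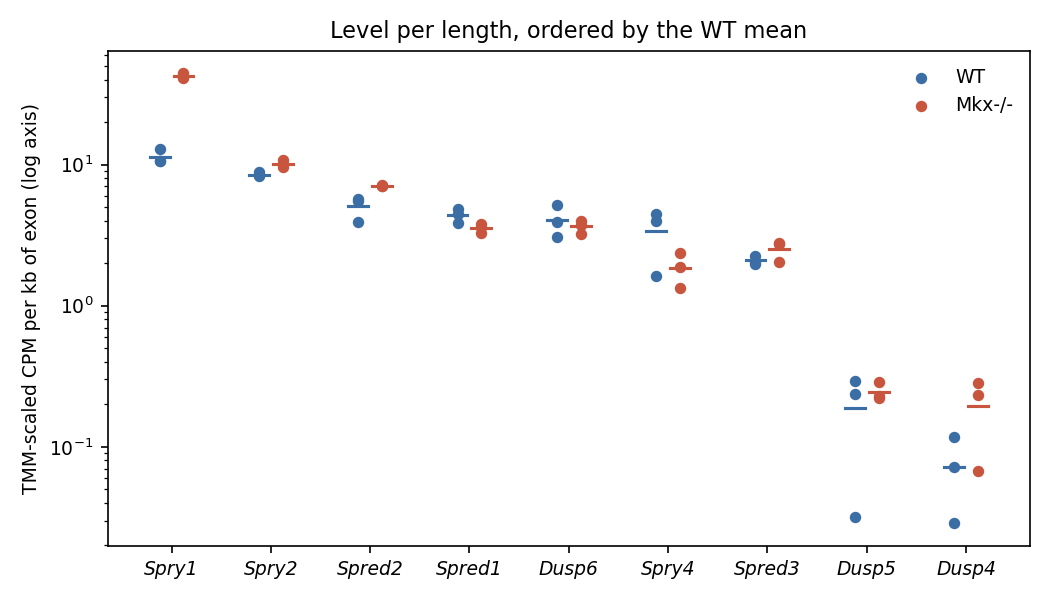
Level per kilobase of exon (TMM-scaled CPM per kb, log axis) of the 9 genes, ordered by the WT mean. Points are libraries and short lines are means, and *Spry1* is the highest gene in both genotypes, at 11.3 CPM per kb in WT and 42.3 in *Mkx*-/- tendons.

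Genes along the same route were then tested across all 14550 genes with edgeR's quasi-likelihood test at an adjusted p under 0.05, which 3.18% of all genes passed upward and 2.26% downward. These 5 lists of known pathway genes hold 73 symbols, of which 69 could be tested. In all, 1 gene rose and 6 fell, with a median log2 fold change of -0.030. DESeq2 gave 5 upward and 7 downward, and scaling by library size alone 12 upward and 6 downward. For each list, counts at an unadjusted p under 0.05 are also given below. The share of all genes at that p was not counted, so nothing is read from these counts.

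Upstream, 3 of 15 receptor tyrosine kinase genes fell and 0 rose (at an unadjusted p under 0.05, 2 were higher; in DESeq2, *Fgfr1* and *Ret* rose), and the median log2 fold change was -0.034. *Fgfr4*, an FGF receptor, was at 26.8, 43.0 and 55.2 CPM in WT and 5.50, 2.53 and 3.81 CPM in *Mkx*-/- libraries. The log2 fold change was -3.42 (SE 0.34, adjusted p = 0.00173 by edgeR). All *Mkx*-/- libraries were far below all WT libraries. *Kit*, the stem cell factor receptor, and *Met*, the hepatocyte growth factor receptor, fell as well, by 2.02 and 1.32 on the log2 scale (adjusted p = 0.00283 and 0.00330 from edgeR), and in neither did the groups overlap.
*Fgfr1*, the receptor gene with the highest WT level per kb of the list, was at 312, 330 and 321 CPM in WT and 462, 419 and 403 CPM in *Mkx*-/- libraries. Its groups did not overlap, and its log2 fold change of 0.42 did not pass the threshold in edgeR (adjusted p = 0.0875, with a range of 0.0154 to 0.237 among other settings).

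The core of the cascade, from the adaptors through Ras and Raf to ERK, was represented by 21 genes. Of these, 0 passed in edgeR's test and 0 in DESeq2, while 4 were higher and 1 lower at an unadjusted p under 0.05. Their log2 fold changes lay between -0.40 and 0.40 with a median of 0.003. *Mapk3*, which encodes ERK1, was at 138, 149 and 136 CPM in WT and 148, 207 and 191 CPM in *Mkx*-/- libraries. Its groups overlapped, and its log2 fold change was 0.37 (adjusted p = 0.187 in edgeR, with a range of 0.0570 to 0.442 among other settings).

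Downstream, of 17 genes that ERK is known to induce, *Fos* fell and 0 rose in edgeR's test. Before adjustment 7 were lower and 3 higher at a p under 0.05, and DESeq2 passed *Egr1* and *Fos* downward and *Egr2* upward. The median log2 fold change was -0.322. *Fos*, an immediate early gene, was at 135, 36.1 and 90.4 CPM in WT and 17.3, 24.0 and 28.2 CPM in *Mkx*-/- libraries. The WT libraries were spread widely, and WT replicate 2 was near the *Mkx*-/- libraries. The log2 fold change of *Fos* was -1.91 (edgeR adjusted p = 0.0404), and it passed in 2 of the 6 leave-one-out fits, the adjusted p being 0.109, 0.0992, 0.111 and 0.0917 without WT replicate 3 and *Mkx*-/- replicates 1, 2 and 3. *Egr2* is also a Schwann cell gene. The summed level of 7 Schwann cell markers, *Egr2* among them, was 7565 to 10035.5 CPM in WT and 11824 to 22053 CPM in *Mkx*-/- libraries. None of the 7 passed in edgeR, and the part of Schwann cells in the level of *Egr2* was not tested.

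Among the other MAP kinase phosphatases, 5 of 7 could be tested, with a median log2 fold change of 0.16, 1 that fell and 0 that rose (1 was higher at an unadjusted p under 0.05, and 0 rose in DESeq2). *Dusp1*, an immediate early phosphatase that acts on p38, JNK and ERK, was at 292, 153 and 187 CPM in WT and 94.9, 97.8 and 79.2 CPM in *Mkx*-/- libraries. The groups did not overlap and WT replicate 1 was the highest. Its log2 fold change was -1.22 (SE 0.23, adjusted p = 0.0248 by edgeR). It passed in 2 of the 6 leave-one-out fits, the adjusted p being 0.0645, 0.0572, 0.0713 and 0.0917 with WT replicate 3 or *Mkx*-/- replicate 1, 2 or 3 dropped.

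Among 11 other feedback inhibitors tested, 1 fell and 1 rose in edgeR, with a median log2 fold change of -0.030. At an unadjusted p under 0.05, 4 were higher and 3 lower. DESeq2 passed *Dab2ip* and *Lrig3* upward and *Errfi1* downward. *Errfi1*, which encodes the EGF receptor inhibitor Mig6, was at 804, 436 and 260 CPM in WT and 72.1, 139 and 57.1 CPM in *Mkx*-/- libraries. It was the gene with the highest WT level per kb of its list, and every WT library was above every *Mkx*-/- library. Its log2 fold change was -2.49 (SE 0.46, adjusted p = 0.0220 by edgeR). It passed in 3 of the 6 leave-one-out fits, and missed at 0.0692, 0.0671 and 0.0728 with WT replicate 2 or *Mkx*-/- replicate 1 or 3 dropped.
*Lrig3*, a transmembrane regulator of receptor signaling, was at 29.5, 21.1 and 20.7 CPM in WT and 50.1, 51.1 and 36.5 CPM in *Mkx*-/- libraries. The log2 fold change was 0.95 (adjusted p = 0.0290 by edgeR). It passed in 2 of the 6 leave-one-out fits, and missed at 0.113, 0.116, 0.0805 and 0.0914 with WT replicate 2 or 3 or *Mkx*-/- replicate 1 or 2 dropped. *Spry3*, the remaining Sprouty, had 0 counts in all 6 libraries. It had no exon record in the annotation used here for lengths. Whether reads on it could be counted is therefore not known, and nothing is said of its expression.

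**Figure D5:**
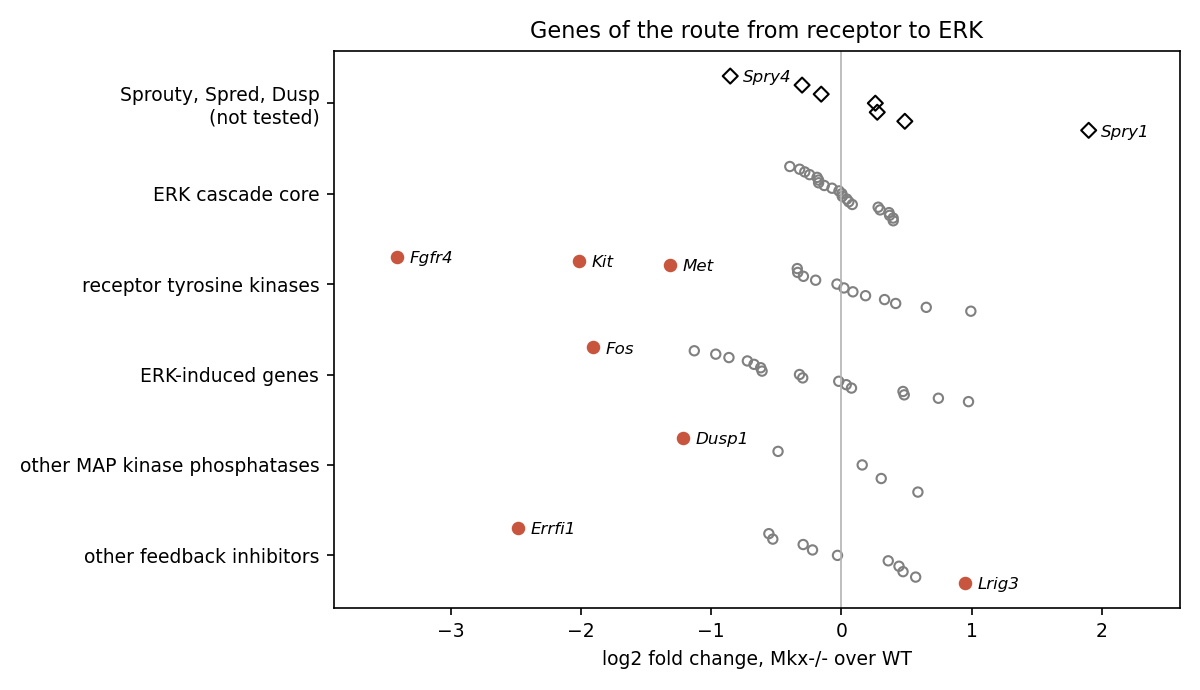
Log2 fold change (*Mkx*-/- over WT) of the 7 fitted Sprouty, Spred and Dusp genes (open diamonds, not tested) and of the tested genes of 5 pathway lists (circles). Filled and named circles passed an adjusted p of 0.05 in edgeR. *Fgfr4* is the lowest at -3.42, and *Lrig3* at 0.95 is the only filled circle above 0.

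The 8 tendon markers summed to 381851 to 524601 CPM in WT and 244907 to 339612 CPM in *Mkx*-/- libraries. *Col1a1* and *Col1a2* made up 86.2% to 94.8% of this sum in each library, and neither passed in edgeR (adjusted p = 0.287 and 0.0933). Without both, the sum was 27034 to 27386 CPM in WT and 31427 to 38164 CPM in *Mkx*-/- libraries. *Thbs4* was the only tendon marker that passed. It rose 2.40-fold (adjusted p = 0.0118 by edgeR), from 4638 to 11147 CPM on average, and is part of the sum without the collagens. Log2 fold changes were -1.14 for *Scx*, -1.02 for *Col1a2*, -0.68 for *Col1a1* and -0.42 for *Kera*. They were -0.02 for *Tnmd*, -0.03 for *Dcn* and 0.11 for *Fmod*, so 6 of the 8 markers were lower in *Mkx*-/- tendons. Tail tendon also holds other cells. The summed level of 12 skeletal muscle markers, led by *Myh1* in WT libraries, was 97.0 to 366 CPM in WT and 507 to 2544 CPM in *Mkx*-/- libraries, with 11 of the 12 higher in *Mkx*-/- tendons and 2 (*Tnnt3* and *Tnni2*) past the threshold. Among *Mkx*-/- libraries this sum was highest in replicate 1 and lowest in replicate 3 (2544, 1226 and 507 CPM), beside 129, 121 and 119 CPM for *Spry1*. *Pax7* and *Myf5*, markers of muscle satellite cells, were looked up after the values had been seen. They had 0 counts in all WT libraries and at most 1 count in any *Mkx*-/- library. Whether such cells were present was not tested.
The sum of 10 endothelial markers was 74.1 to 91.0 CPM in WT and 123 to 188 CPM in *Mkx*-/- libraries. *Tek*, which led it in WT, had a log2 fold change of 0.02, and *Erg*, from 8.30 CPM in WT to 36.0 CPM on average, was the only one that passed (adjusted p = 0.00195 by edgeR). Without *Erg* the groups overlapped, at 67.4 to 82.5 CPM in WT and 78.4 to 161 CPM in *Mkx*-/- libraries. The sum of 8 cartilage markers was 2153 to 2366 CPM in WT and 2980.0 to 4119.6 CPM in *Mkx*-/- libraries, with 7 of 8 higher. *Col2a1*, which led it in WT, had a log2 fold change of -0.08, and *Acan*, *Matn3* and *Ucma* rose. Of 10 macrophage and leukocyte markers, led by *Lyz2*, 8 were lower and *Cd3e* was at 0 in every library. In edgeR 3 passed downward (*Csf1r*, *Emr1* and *Mrc1*) and 0 upward. Their sum over all 10 was 534 to 574 CPM in WT and 336 to 415 CPM in *Mkx*-/- libraries. Adipocyte markers summed to at most 63.1 CPM in any library, most of it in *Mkx*-/- libraries from *Car3*, which muscle also expresses. Without *Car3* their sum was 2.72 to 3.62 CPM in WT and 2.56 to 5.20 CPM in *Mkx*-/- libraries, with overlapping groups, and *Lep* was at 0 in all *Mkx*-/- libraries. Keratinocyte markers summed to at most 9.13 CPM in WT and 13.3 to 20.2 CPM in *Mkx*-/- libraries, and none passed. *Krt10* led them in WT only, with a log2 fold change of 0.14. The part of these cells in the levels of *Spry1* and the other genes was not tested.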

How the data were processed

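Bulk RNA was measured in 3 WT and 3 *Mkx*-/- tail tendon libraries sequenced on the Ion Proton system. The authors removed adaptors and low-quality reads, aligned to mm9 with MapSplice, and deposited raw counts (whole reads for each gene symbol). How reads were assigned to genes, with which annotation and strand setting, is not given in the sources used here. All 6 columns were matched to samples by their labels. Depth was 10835070 to 14160301 counts per library.

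From the deposited counts, edgeR 4.0.16 under R 4.3.3 gave TMM-scaled CPM and log2 fold changes (filterByExpr, quasi-likelihood fit on genotype, prior count 0.125, Benjamini-Hochberg adjustment over 14550 genes). DESeq2 1.42.0 was an alternative. The 9 genes, the pathway and marker lists and the tests were chosen with earlier results of these data known. Named genes were the 9, *Mkx*, tendon markers, the gene with the highest WT mean of each other marker list, pathway genes past the threshold (at most 6 per list), the highest of each pathway list per kb, and the 5 genes most correlated with *Spry1*. Other pathway genes and *Ddx3y*, *Xist*, *Cd3e*, *Pax7*, *Myf5* and other marker genes were named after their values were seen. *Hras* is *Hras1* in the table. On simulated counts with 200 of 14550 genes shifted by 2 on the log2 scale, edgeR recovered 193 with 3 false calls. The simulated spread followed the fitted trend with no library standing apart. Smaller shifts were not simulated, so their recovery is not known. Alternatives were DESeq2, RLE and library-size scaling, filters of 1 and 10 counts, a robust fit, a replicate block and each library left out. Exon lengths and coordinates came from the GENCODE M1 annotation of mm9. Marker sums without *Car3*, *Erg* or both collagen genes were chosen after seeing the data.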

Additional observations from a re-analysis of the deposited data

How the results depend on the processing

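All 7 fitted Sprouty, Spred and *Dusp6* log2 fold changes moved by less than the spread between replicates under DESeq2, RLE scaling, both filters, the robust fit, the replicate block and each library left out. Scaling by library size alone moved *Spry1* to 2.14, and *Spry2*, *Spred1*, *Spred2* and *Spred3* to 0.51, -0.06, 0.75 and 0.53. It called 711 genes upregulated, and a filter of only 1 count gave 541 upregulated and 322 downregulated genes. DESeq2 called 385 and 275. Pathway genes passing upward numbered 5 in DESeq2, 12 when scaled by library size alone, 4 with the filter of 1 count and 2 with the replicate block, beside 1 in the report. With each library left out, upregulated genes numbered 103 (without WT replicate 3) to 321 (without WT replicate 1), with 119, 155 and 177 without WT replicate 2, *Mkx*-/- replicate 2 and *Mkx*-/- replicate 3. Downregulated genes numbered 112 (without WT replicate 3) to 248 (without WT replicate 1), with 113 and 121 without WT replicate 2 and *Mkx*-/- replicate 3. Pathway genes numbered 0 (without WT replicate 2, WT replicate 3 or *Mkx*-/- replicate 2) to 2 (without WT replicate 1) upward and 4 to 7 downward. With the replicate number as a block, 195 genes were called upregulated and 136 downregulated, *Spry1* was at 1.91 and *Fos* was no longer past the threshold (adjusted p = 0.0926). *Fos* was not past it in the robust fit either (adjusted p = 0.0774), and the other 5 pathway genes that fell were. Same-numbered libraries deviated together with correlations of 0.026, -0.21 and 0.30, and not every library correlated best with its own number, so the numbers were not taken to pair them. Among these 7 genes and the 9 pathway genes named by rule, none changed direction apart from *Dusp6*, which was 0.04 without WT replicate 3 and 0.10 when scaled by library size alone. The cause of these shifts was not tested. *Dusp4* and *Dusp5*, with at most 11 counts in a library, had too few counts to fit.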

Other observations

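The genes whose log2 CPM followed *Spry1* most closely over the 6 libraries, among those with a mean of at least 5 CPM, were *Got1*, *Specc1*, *Cobll1*, *Cnr1* and *Pdp1*, with Pearson correlations of 0.9988, 0.9965, 0.9960, 0.9958 and 0.9949. The 6 points are split between the 2 genotypes, all 5 genes were higher in every *Mkx*-/- library than in any WT library, and no p is given. *Got1*, which encodes the cytosolic aspartate aminotransferase, averaged 12.9 ± 0.965 CPM over the WT libraries and 24.4 ± 0.792 CPM over the *Mkx*-/- libraries (± SD, n = 3 each). *Specc1* was at 11.7, 10.2 and 10.1 CPM in WT and 44.5, 48.1 and 39.9 CPM in *Mkx*-/- libraries. In all 5 genes, as in *Spry1*, WT replicate 1 was the highest of the WT libraries. They were picked by their correlation with *Spry1* over these same libraries, so nothing is read from this. *Cnr1*, the cannabinoid receptor gene, averaged 0.652 ± 0.468 CPM over the 3 WT and 19.2 ± 2.77 CPM over the 3 *Mkx*-/- libraries (± SD). With 15, 3 and 6 counts in WT, it met the minimum of 5 CPM only through the *Mkx*-/- libraries. Its correlation therefore reflects mainly the split between genotypes.

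Among genes known to be induced by ERK, *Etv4* and *Etv5* encode ETS factors. *Etv4* was at 5.04, 9.91 and 9.05 CPM in WT and 5.40, 4.43 and 5.87 CPM in *Mkx*-/- libraries, with WT replicate 1 within the *Mkx*-/- range as for *Spry4*. *Etv5* was at 6.93, 7.95 and 8.25 CPM in WT and 8.15, 6.67 and 8.01 CPM in *Mkx*-/- libraries, with overlapping groups. *Phlda1* was highest in WT replicate 1, at 17.4 CPM, with 7.56 and 7.21 CPM in the other WT libraries and 4.84 to 5.86 CPM in *Mkx*-/- libraries. Neither *Etv4*, *Etv5* nor *Phlda1* passed an adjusted p of 0.05 in edgeR (adjusted p = 0.229, 0.964 and 0.141).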
